A study of Mus musculus with 20 samples.

Results

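The Olig1 and Olig2 locus was described as a window of 250 kb on mouse chromosome 16 (chr16:91125000-91375000, GRCm38/mm10) that holds both genes. Of the 32120 consensus ATAC-seq regions in the authors' table, 5 carry Olig1 or Olig2 as their gene (3 for Olig2 and 2 for Olig1), and 12 lie in the window. The window also holds 261 of the 709410 peaks called in the separate libraries, and 3 of the 1205 rows of the footprint table are named for these genes. Cells of the Nkx2.1 lineage were sorted by their green fluorescence from the neocortex of pups at postnatal day 7 or 8. The labels of the footprint scores give day 7 for ATAC-seq, and the paper's appendix gives day 7 for the H3K4me1 profiles. WT pups carried Nkx2.1-Cre and the Ai3 reporter, which gives EYFP after Cre has acted, and Tcf4 cKO pups carried the same transgenes with both Tcf4 alleles floxed (Tcf4 f/f). The WT group therefore also expressed Cre and the reporter. A further line, Tcf4-tag, adds Flag/HA to the end of the native Tcf4 protein once Nkx2.1-Cre has acted, so the tagged protein was read in the same lineage. Chromatin accessibility was measured by ATAC-seq, in which the Tn5 transposase cuts open DNA. H3K4me1, H3K27ac, H3K27me3 and the Flag tag were profiled by Cut&Tag, in which an antibody brings Tn5 to its target. There were 2 libraries per assay and genotype, from 50000 cells each, and 2 Tcf4-tag libraries from 200000 nuclei each. No source used here says whether the libraries of a group came from separate animals, so the spread between them may be technical.

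Olig1 and Olig2 encode basic helix-loop-helix (bHLH) transcription factors of the oligodendrocyte lineage. Olig2 acts early in ventral progenitors and in the specification of oligodendrocyte precursors (OPCs), and Olig1 acts in their maturation. bHLH factors bind E-boxes, short elements of the form CANNTG, as dimers, and Tcf4 is an E protein, the class of bHLH factor that pairs with lineage-specific partners. H3K27ac marks active promoters and enhancers, H3K4me1 marks enhancers more broadly, and H3K27me3 is the Polycomb mark of silenced genes.

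In the GENCODE M21 annotation Olig2 lies on the plus strand at chr16:91225457-91228677 and Olig1 on the plus strand at chr16:91269772-91271933, with start sites 44.3 kb apart. The other genes that start in the window are the lincRNAs Gm41492 and Gm15966, the snRNA Gm24695, the processed pseudogenes Gm49611, Gm49612 and Gm49613, the uncharacterised loci Gm49614 and Gm37016, and Ifnar2, which encodes a subunit of the type I interferon receptor. Below, a region is named by the distance of its centre from the Olig2 start, positive toward Olig1. The 5 regions of the genes were the Olig2 promoter (chr16:91224792-91225899), the +8.0 kb region (chr16:91232813-91234049), the +21.2 kb region (chr16:91246207-91247058), the +37.9 kb region (chr16:91262557-91264152), which is 6.4 kb before the Olig1 start, and the Olig1 promoter (chr16:91269288-91270425). The authors assigned the first 3 to Olig2 and the other two to Olig1. The promoter regions overlap exons of their genes, the +37.9 kb region overlaps an exon of Gm37016, and the +8.0 and +21.2 kb regions are intergenic.

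The sequences below show where E-boxes lie in the DNA under the Tcf4-tag peaks, since the site near +21 kb differs from the others in this respect. Each is the 150 bases around the mean summit of the 2 Tcf4-tag libraries, from the RefSeq copy of GRCm38, plus strand, with every CANNTG in capitals. The site within the +21.2 kb region (chr16:91246522-91246671) had 4 E-boxes, 2 of which adjoin.
Tcf4 site +21.1 kb: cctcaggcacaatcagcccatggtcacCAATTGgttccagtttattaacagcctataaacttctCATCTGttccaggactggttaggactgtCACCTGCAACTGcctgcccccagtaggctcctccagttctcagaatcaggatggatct
Among 14083 reproducible Tcf4-tag summits on the chromosomes, 46.5% had at least 1 E-box in 150 bases and 2.21% had at least 4. At the centres of all consensus ATAC-seq regions 48.9% had at least 1, so the share with any E-box was no higher at Tcf4-tag summits. The mean number per window was higher at summits, 0.747 against 0.701. Of the spellings searched singly, CAGCTG (15.1% against 12.9%) and CAGGTG (11.0% against 8.25%) were more frequent at summits. CAGATG was in 10.4% of both, and CATATG in 1.23% against 1.45%. The paper reports an E-box motif from a de novo search of its Tcf4 peaks. The site in the +8.0 kb region (chr16:91233525-91233674) and the one at -33.6 kb (chr16:91191829-91191978) each had a single E-box, CAGCTG, the sequence found in 15.1% of the summit windows.
Tcf4 site +8.1 kb: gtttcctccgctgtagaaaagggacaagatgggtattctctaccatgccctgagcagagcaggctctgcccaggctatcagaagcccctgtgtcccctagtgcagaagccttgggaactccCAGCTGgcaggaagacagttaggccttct
Tcf4 site -33.6 kb: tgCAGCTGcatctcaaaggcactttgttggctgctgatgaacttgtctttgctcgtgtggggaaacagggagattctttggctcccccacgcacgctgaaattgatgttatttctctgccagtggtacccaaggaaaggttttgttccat
The site with the smallest q-values of the window, at +80.4 kb (chr16:91305741-91305890), had 1 E-box, and the site in the +37.9 kb region (chr16:91263319-91263468) had none.
Tcf4 site +80.4 kb: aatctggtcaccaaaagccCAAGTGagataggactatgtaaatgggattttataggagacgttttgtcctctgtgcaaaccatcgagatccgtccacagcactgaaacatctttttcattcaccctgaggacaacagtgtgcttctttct
Tcf4 site +37.9 kb: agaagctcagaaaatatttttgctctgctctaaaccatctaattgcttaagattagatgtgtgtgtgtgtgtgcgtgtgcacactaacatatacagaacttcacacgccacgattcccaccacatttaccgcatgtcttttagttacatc
For the promoters, the 250 bases before each GENCODE start are given (Olig2, chr16:91225207-91225456; Olig1, chr16:91269522-91269771).
Olig2 upstream: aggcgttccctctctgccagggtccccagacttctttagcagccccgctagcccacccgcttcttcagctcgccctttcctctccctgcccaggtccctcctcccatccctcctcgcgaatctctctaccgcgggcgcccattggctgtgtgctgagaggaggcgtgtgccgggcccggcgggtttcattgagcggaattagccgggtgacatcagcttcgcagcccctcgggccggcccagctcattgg
Olig1 upstream: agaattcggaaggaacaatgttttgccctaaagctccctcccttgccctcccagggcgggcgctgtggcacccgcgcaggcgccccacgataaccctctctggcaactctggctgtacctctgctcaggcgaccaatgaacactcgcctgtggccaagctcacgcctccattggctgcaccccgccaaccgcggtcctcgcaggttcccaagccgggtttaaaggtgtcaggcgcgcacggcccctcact
Neither stretch holds a CANNTG, and their GC contents are 66.0% and 63.6%. Of the 250 bases before each of 32851 RefSeq starts, 66.2% hold at least 1 CANNTG. No match says only that these letters are absent from these windows.

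The 12 consensus regions of the window had an ATAC-seq peak in all 4 libraries, as did 94.6% of all consensus regions. Merging the peaks of the 4 libraries gave 34 ATAC-seq regions in the window, of which 17 had a peak in every library (46.8% of merged regions genome-wide). Of the 34, 5 were called in each WT library and in no Tcf4 cKO library, against 4.83% genome-wide, and none had the opposite pattern, against 3.49%. These 5 lay at -44.5, -13.3, +7.0, +129.4 and +129.9 kb, outside the consensus regions, with fold enrichments between 2.43 and 5.40 where a peak was called. Their -log10 q values ran from 2.06 to 8.17. At +7.0 kb the fold enrichments stood at the 0.88 and 0.32 percentiles of the WT libraries. Where no peak was called, the signal did not reach the caller's threshold, and access may still be present. Fold enrichment is the peak caller's ratio of reads at the summit to its local background.

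**Figure D1:**
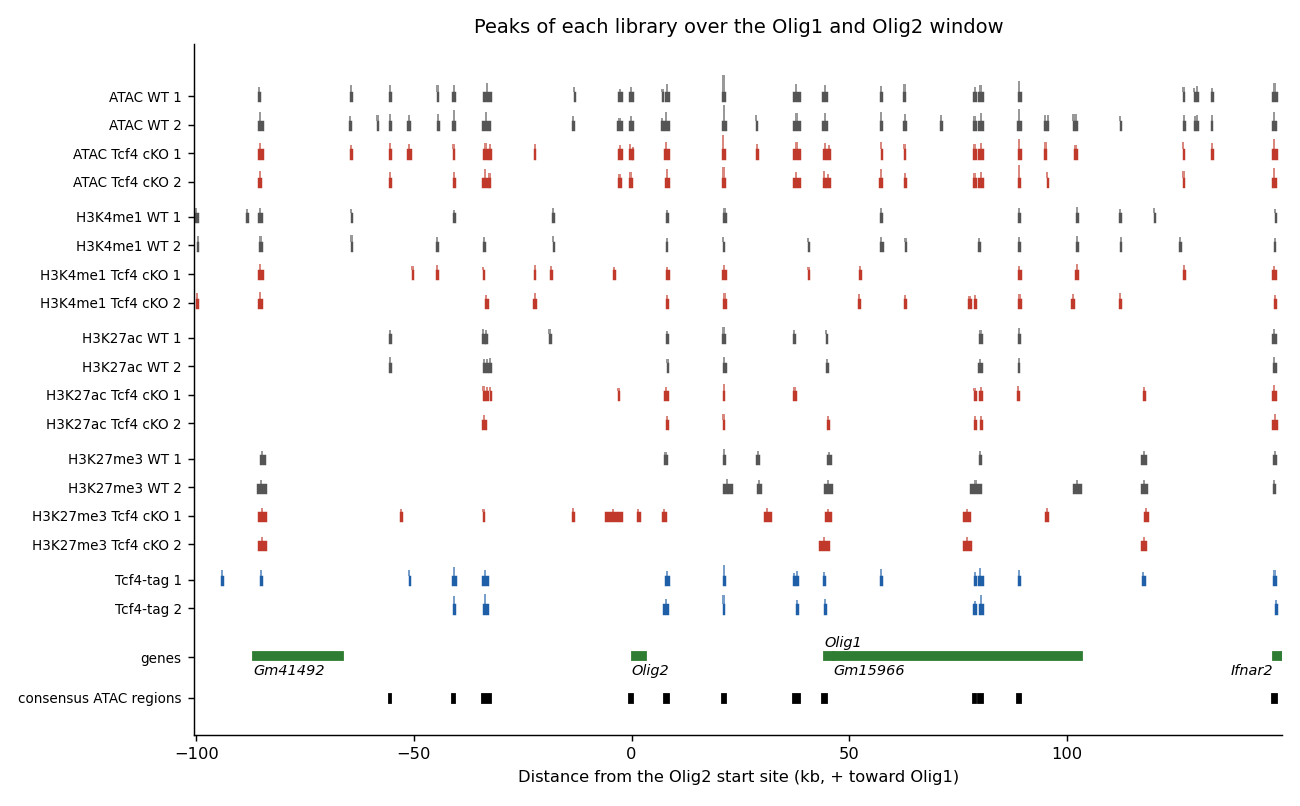
Peaks of each library over the 250-kb window, as boxes, against the distance from the Olig2 start site in kb (WT grey, Tcf4 cKO red, Tcf4-tag blue); the thin bar over each box is proportional to its fold enrichment, of which the highest is 12.7. The 12 consensus ATAC-seq regions and the protein-coding and lincRNA genes stand at the bottom; peaks of most assays line up at +8.0, +21.2 and +80.2 kb.

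The +21.2 kb region had the highest ATAC-seq fold enrichment of the locus in 3 of the 4 libraries. Its values were 12.7 and 12.2 in the WT libraries and 10.8 and 8.20 in the Tcf4 cKO libraries, so the genotypes did not overlap. Within the libraries these stood at the 98.5 and 97.4 percentiles of all peaks in WT and at the 95.1 and 79.0 percentiles in Tcf4 cKO. The centred log2 difference was -0.32 (SE 0.14), with an adjusted p of 0.236 (limma with Benjamini-Hochberg adjustment over 30379 regions, n = 2 per genotype), which does not pass the threshold of 0.05. Without Tcf4 cKO replicate 2, the lowest library, the log2 difference was -0.13. In a bulk measurement, fewer accessible cells and less access per cell cannot be told apart.

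The Olig2 promoter gave lower fold enrichments, 3.63 and 3.60 in WT and 3.76 and 4.29 in Tcf4 cKO. The Tcf4 cKO values lay above the WT values, with a log2 difference of 0.24 (SE 0.14) and an adjusted p of 0.495 (limma). The Olig1 promoter had 5.61 and 5.60 in WT and 4.58 and 4.98 in Tcf4 cKO, so here the Tcf4 cKO values lay below. Its log2 difference was -0.14 (SE 0.18), with an adjusted p of 0.848 (limma).

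The +8.0 kb region read 6.09 and 6.43 in WT and 5.46 and 6.82 in Tcf4 cKO, and the genotypes overlapped. The +37.9 kb region read 6.004 and 5.74 in WT and 5.66 and 4.54 in Tcf4 cKO, with both Tcf4 cKO values below the WT values as deposited. After each library was centred on its median, those of this region overlapped. As deposited, both Tcf4 cKO libraries lay below both WT libraries at 3 of the 5 regions and above at 1, where 33.5% and 11.7% of all tested regions did so. After centring, the counts were 2 and 1 of 5, against 19.8% and 21.8%.

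**Figure D2:**
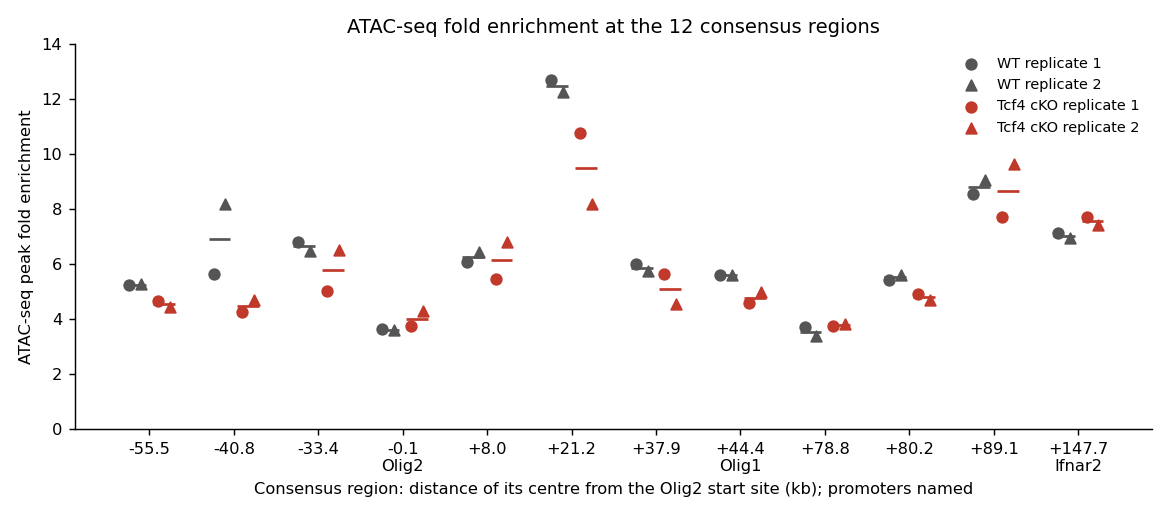
ATAC-seq peak fold enrichment (vertical axis, from 0) at the 12 consensus regions, ordered by distance from the Olig2 start site; circles and triangles are the 2 replicates of WT (grey) and Tcf4 cKO (red), and short lines are their means. At +21.2 kb the WT libraries read 12.7 and 12.2 and the Tcf4 cKO libraries 10.8 and 8.20.

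Of the 7 window regions with another gene or none, the -40.8 kb region (chr16:91184277-91184989, intergenic) had the largest fitted difference. It read 5.64 and 8.18 in WT and 4.26 and 4.70 in Tcf4 cKO, a log2 difference of -0.51 (SE 0.19) with an adjusted p of 0.129 (limma). Without WT replicate 2, the highest library, the log2 difference was -0.31, with an adjusted p of 0.604 (limma). The +89.1 kb region, in an intron of Gm15966, read 8.54 and 9.04 in WT and 7.71 and 9.62 in Tcf4 cKO, and the genotypes overlapped. The Ifnar2 promoter (chr16:91372524-91373738) read 7.13 and 6.94 in WT and 7.73 and 7.43 in Tcf4 cKO, with a log2 difference of 0.20 (SE 0.18) and an adjusted p of 0.741 (limma).

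No region of the locus passed the test: 0 of the 5 regions of the genes and 0 of the 12 of the window were called, against 970 of 30379 regions (3.19%). The paper's own test of reads links regions closing in Tcf4 cKO to oligodendrocyte genes, Olig2 among them. Its text does not name those regions. That test needs read counts of each library, which were not available here. Peak fold enrichment was fitted instead, so a region not called here may still differ by reads. At an unadjusted p under 0.05 (limma) there were 2 of the 12, the -40.8 and +21.2 kb regions, against 4312 of the 30379 tested regions, a similar share. A single comparison of 2 against 2 libraries cannot go below 0.33 in an exact two-sided permutation test. On simulated data of the same size and spread, the ATAC-seq fit called 94% of regions changed by 1 on the log2 scale. The simulated noise was drawn from the fitted model itself and held no library effects, so the share in the real libraries may be lower. The fitted differences at the 12 regions ran from -0.51 to 0.24. Changes that small were not simulated, so the share of them that the fit would call is unknown.

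The authors' table also gives the mean of each genotype as log2 normalised reads per region, without a spread, so these values carry no error or test. The mean was lower in Tcf4 cKO at all 12 regions of the window, as it was at 63.5% of all consensus regions. The median difference over the 12 was -0.40 and over the 5 regions of the genes -0.38, against -0.095 over all consensus regions. The mean was lower by more than 0.5 on the log2 scale at 1 of the 5 regions and 5 of the 12, and at 12.6% of all regions. A mean higher by more than 0.5 was found at none of the 12 and at 8.38% of all regions.

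Within the genes' own regions the largest difference was at +21.2 kb, where the authors' mean was 8.09 in WT and 7.33 in Tcf4 cKO, a difference of -0.77. Of the 32120 regions, 2194 had a lower difference. At the Olig2 promoter the authors' means were 8.95 and 8.70, and at the Olig1 promoter 8.57 and 8.21. The +8.0 kb region had 9.21 and 8.79, and the +37.9 kb region 8.98 and 8.60. Thus the Olig2 promoter was lower in Tcf4 cKO by the authors' mean and higher by peak fold enrichment, and the sign at this region depends on the measure.

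Beyond Olig1, the +80.2 kb region (chr16:91305020-91306306, in an intron of Gm15966 and 35.9 kb past the Olig1 start) had the highest authors' mean of the locus. It read 10.2 in WT and 9.09 in Tcf4 cKO, a difference of -1.07, and 1158 of all regions had a lower one. Per kb of region, its WT level was at the 99.9 percentile of all consensus regions, and the Olig2 promoter was at the 93.5 and the +8.0 kb region at the 94.98 percentile. Peak fold enrichment at +80.2 kb was 5.43 and 5.62 in WT and 4.92 and 4.71 in Tcf4 cKO, between the 28.7 and 46.3 percentiles of their libraries, with a log2 difference of -0.11 (SE 0.18) and an adjusted p of 0.896 (limma). The adjoining +78.8 kb region had authors' means of 8.77 and 7.997, and the -33.4 and -40.8 kb regions had 9.27 and 8.55, and 6.53 and 5.53. Peak fold enrichment at +78.8 kb was 3.70 and 3.38 in WT and 3.74 and 3.81 in Tcf4 cKO. Its log2 difference was 0.18 (SE 0.14), with an adjusted p of 0.651 (limma), so the sign depends on the measure there too. The same holds at the Ifnar2 promoter, with a log2 difference in fold enrichment of 0.20 (SE 0.18). At +8.0 and +89.1 kb the centred log2 differences were 0.0547 (SE 0.19) and 0.0618 (SE 0.16). With no centring they were -0.0357 and -0.0286, so at these regions the sign depends on the centring.

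**Figure D3:**
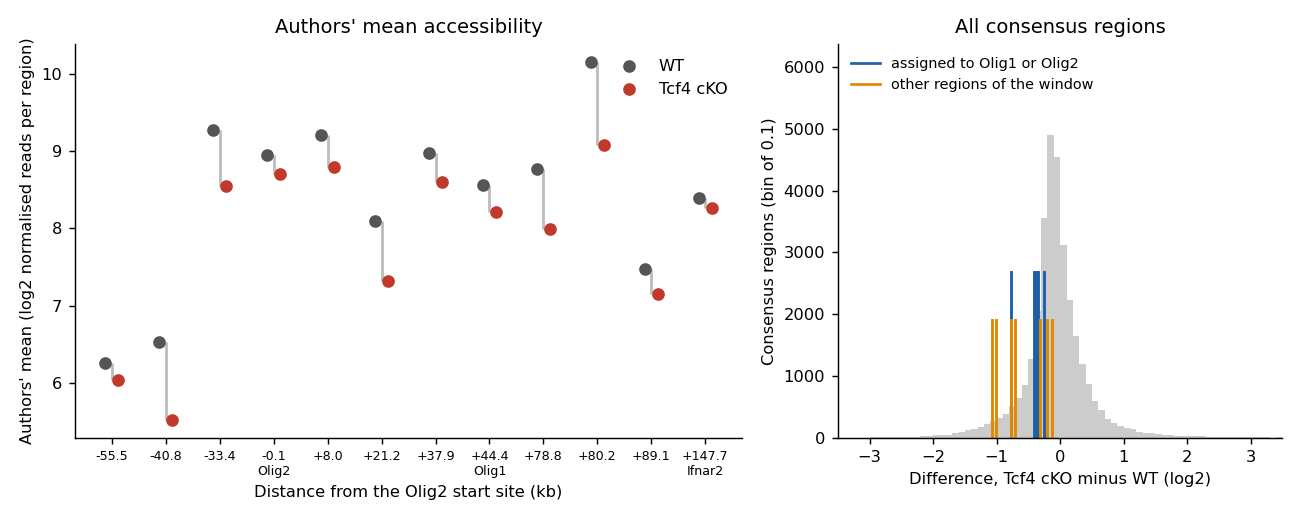
Left, the authors' mean of each genotype (log2 normalised reads per region; the axis does not start at 0) at the 12 consensus regions by distance from the Olig2 start; every Tcf4 cKO point (red) lies below its WT point (grey). Right, the number of all consensus regions by difference (Tcf4 cKO minus WT, bins of 0.1 log2), with the 5 regions of Olig1 and Olig2 as long blue lines and the other 7 as short orange lines, the lowest at -1.07.

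Tcf4-tag peaks were called in both libraries at 9 sites of the window, out of 16 and 9 peaks in the separate libraries. Each of the 9 overlapped a consensus ATAC-seq region, and the share of all Tcf4-tag sites that do so was not counted. Cut&Tag reads also gather at open DNA, and their part in these sites was not tested. Tcf4 covered at least 30% of 4 of the 5 regions of the genes and of 9 of the 12 in the window, where it covered as much of 36.3% of all consensus regions. The region of the genes without it was the Olig2 promoter, where neither Tcf4-tag library had a peak.

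At +21.1 kb the Tcf4-tag fold enrichments were 7.94 and 7.25, at the 95.4 and 89.7 percentiles of their libraries, with summits 20 bp apart. The peak spanned the 4 E-boxes printed above and lay within the ATAC-seq region with the highest fold enrichment in WT. At the Olig1 promoter the Tcf4-tag peaks were weaker, with fold enrichments of 3.22 and 3.82 at the 5.09 and 6.75 percentiles, and their summits lay 13 bp apart over the start site. The site at +8.1 kb had 3.92 and 4.03, and the one at +37.9 kb 3.81 and 3.29.

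At +80.4 kb the fold enrichments were 6.14 and 6.79 and the -log10 q values 49.5 and 44.5. By q this peak ranked 84 of 28606 in library 1 and 75 of 16834 in library 2. The site at -33.6 kb differed more between libraries, with 4.83 and 7.98, and the one at -40.8 kb had 6.80 and 6.35. The sites at +78.9 and +147.9 kb had summits 285 and 485 bp apart in the 2 libraries, so their mean summits mark no single position.

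E-boxes stood within the 150 bases of 6 of the 9 sites, against 46.5% of all reproducible summits and 48.9% of consensus region centres. The +78.9 kb site is among the 6, though its window holds neither library's summit. CAGCTG was found at 2 of the 9 (15.1% of all), and CAGATG, written CATCTG on the other strand, and CAGGTG, written CACCTG on the other strand, at 1 each, both in the +21.1 kb site (10.4% and 11.0% of all). CATATG and the nuclear factor I half-site TTGGCA were found at none (1.23% and 6.16%). The sequence ACAAAG, a core recognised by Sox factors, was found at 2 (9.0%), the -33.6 and +78.9 kb sites. At consensus region centres the shares were 12.9% for CAGCTG, 10.4% for CAGATG and 8.25% for CAGGTG. They were 1.45% for CATATG, 8.96% for TTGGCA and 13.5% for ACAAAG. Each sequence was searched on both strands. CANNTG includes the other E-box spellings.

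**Figure D4:**
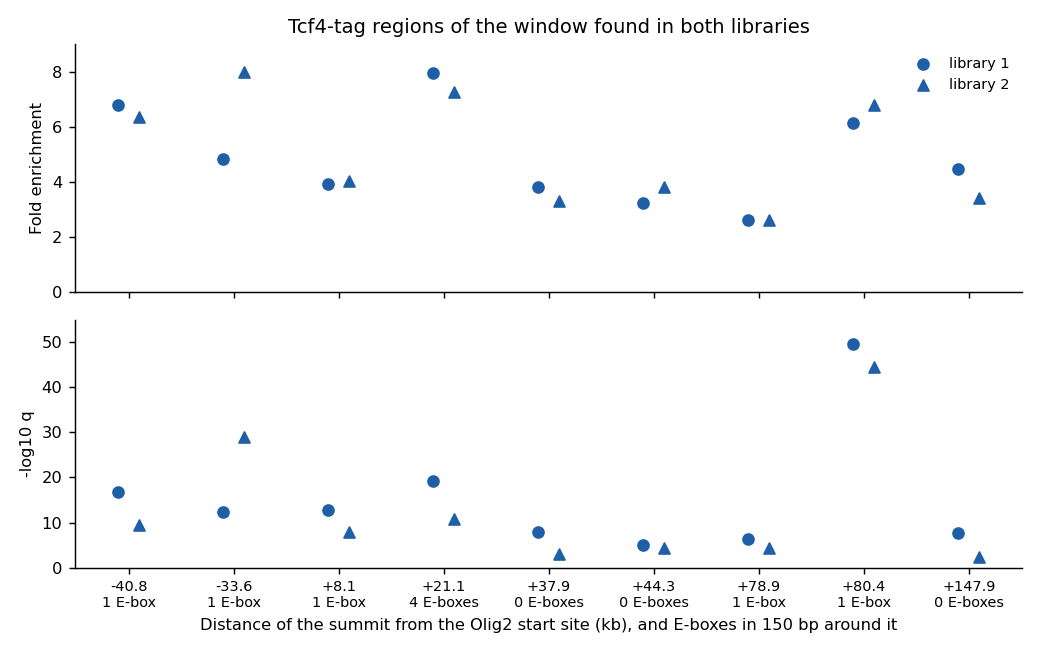
Tcf4-tag fold enrichment (top) and -log10 q (bottom) at the 9 sites of the window found in both libraries (circles, library 1; triangles, library 2), by distance of the summit from the Olig2 start; labels give the number of E-boxes in 150 bp. The +21.1 kb site has 4 E-boxes and fold enrichments of 7.94 and 7.25, and the +80.4 kb site has the highest -log10 q in both libraries.

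H3K4me1 and H3K27ac peaks were both called at the +8.0 and +21.2 kb regions, and neither at the Olig2 promoter. No H3K4me1 or H3K27ac peak overlapped the Olig2 promoter region in any of the 4 libraries of either mark, and no H3K27me3 peak did. A missing peak means only that the signal did not reach the caller's threshold, not that the mark was absent. For ATAC-seq in WT, this promoter's fold enrichments stood at the 7.32 and 9.10 percentiles, and its reads per kb at the 93.5 percentile. H3K4me1 and H3K27ac peaks were each present in all 4 libraries at 2 of the 5 regions of the genes, the +8.0 and +21.2 kb regions, against 43.7% and 39.5% of all consensus regions, so the share was near the background. None of the 5 had H3K27me3 in all 4 libraries at the ATAC-seq region itself, against 7.59%.

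At +21.2 kb H3K27ac had fold enrichments of 5.05 and 4.23 in WT and 5.60 and 4.46 in Tcf4 cKO, and the genotypes overlapped. H3K4me1 there had 3.64 and 3.27 in WT and 3.57 and 4.19 in Tcf4 cKO, which also overlapped. The log2 differences were 0.14 (SE 0.17) for H3K27ac and 0.19 (SE 0.18) for H3K4me1, with adjusted p-values of 0.933 and 0.881 (limma). At +8.0 kb H3K27ac had 2.69 and 2.89 in WT and 2.87 and 2.48 in Tcf4 cKO. H3K4me1 at the same place had 2.31 and 2.96 in WT and 2.61 and 2.54 in Tcf4 cKO.

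The Olig1 promoter had H3K27ac peaks in 3 libraries, with fold enrichments of 2.79 and 2.52 in WT and 2.84 in 1 Tcf4 cKO library. It had no H3K4me1 peak, and nor did the +37.9 kb region. At the +37.9 kb region H3K27ac was called in 1 library of each genotype, at 2.88 in WT and 2.78 in Tcf4 cKO. At +80.1 kb H3K27ac was called in all 4 libraries, at 2.71 and 2.86 in WT and 3.01 and 3.02 in Tcf4 cKO.

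Across merged regions of each mark, 5 locus regions of H3K4me1, 5 of H3K27ac and 4 of H3K27me3 had a peak in all 4 libraries and could be tested, and none passed in any of the 3. Over all tested regions limma called 0.00383% for H3K4me1, 0.0% for H3K27ac (0 of 13799 by limma, the only tool run, with 912 at an unadjusted p under 0.05) and 4.15% for H3K27me3. In the window 2 H3K4me1 regions of 29 were called in both WT libraries and neither Tcf4 cKO library, and 2 in the opposite pattern, against 2.64% and 7.51% of all merged regions. For H3K27ac there was 1 of 14 in each pattern, against 4.23% and 2.53%: the -55.5 kb region had 3.33 and 4.37 in WT, and the +78.8 kb region had 2.73 and 2.81 in Tcf4 cKO.

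H3K27me3 lay over Olig1 in all 4 libraries (chr16:91268531-91271513) and over Olig2 in 1 Tcf4 cKO library (chr16:91226636-91227408). Over Olig1 its fold enrichments were 2.47 and 2.34 in WT and 2.26 and 2.58 in Tcf4 cKO, which overlapped, with a log2 difference of 0.00 (SE 0.09) and an adjusted p of 0.992 (limma). Over Olig2 the single peak had a fold enrichment of 1.96. Regions with H3K27me3 in all 4 libraries also lay at -85.0, +78.3 and +117.8 kb, with fold enrichments between 2.39 and 3.33. At +78.3 kb the peaks of WT replicate 1 and of the Tcf4 cKO libraries did not overlap one another and were joined by that of WT replicate 2. The same gene promoter at Olig1 thus carried an accessible region, weak H3K27ac and H3K27me3 peaks in a bulk sample, and whether they sit in the same cells was not measured.

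At 3 of the 16 merged H3K27me3 regions of the window both WT libraries and neither Tcf4 cKO library had a peak, against 4.05% of all merged regions, and none had the opposite pattern, against 5.36%. One of the 3 (chr16:91246474-91248456) overlaps the +21.2 kb region, with fold enrichments of 4.42 and 3.40 in WT. Counted over the consensus ATAC-seq regions, 1 of the 5 regions of the genes had such a pattern, against 1.72% of all. The others were at +29.2 kb, with 2.98 and 2.71, and at the Ifnar2 promoter, with 2.98 and 2.83. The -log10 q values of these WT peaks at +22.0 kb were 4.96 and 2.57, and 4.96 was the highest of any H3K27me3 peak in the window. At +29.2 kb the values were only 1.51 and 1.41, and at the Ifnar2 promoter 1.24 and 1.10. The last of these ranked 16650 of 16790 peaks in WT replicate 2, so the peaks at this promoter lay close to the caller's threshold. A missing peak means that the signal did not reach the caller's q maximum of 0.1, not that the mark was absent. Cut&Tag reads also gather at open DNA, and the WT ATAC-seq values at this region were the higher ones; their part in this pattern was not tested.

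In the whole window, ATAC-seq peaks covered 16821 and 22118 bp in WT and 18591 and 14612 bp in Tcf4 cKO, which overlapped. H3K27ac covered 5992 and 4852 bp in WT and 6799 and 4364 bp in Tcf4 cKO. H3K27me3 covered 6177 and 13414 bp in WT and 15336 and 6972 bp in Tcf4 cKO, with SDs of 5117 and 5914 bp (n = 2). H3K4me1 covered 6576 and 6875 bp in WT and 7925 and 7918 bp in Tcf4 cKO, and the genotypes did not overlap. As a share of the length covered in each library, H3K4me1 gave 242 and 210.0 bp per Mb in WT and 186 and 209 bp per Mb in Tcf4 cKO, so the Tcf4 cKO values were then the lower ones.

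The libraries held 54162 to 72308 ATAC-seq, 51510 to 72790 H3K4me1, 22026 to 28413 H3K27ac, 15085 to 19182 H3K27me3 and 16834 to 28606 Tcf4-tag peaks. Read totals are not in the peak lists, so sequencing depth is unknown. Of 6 OPC marker genes, which include Olig1 and Olig2, 5 or 6 had an ATAC-seq peak within 1 kb of a start site and 1 or 2 had an H3K27ac peak, per library. Peaks were within 1 kb for 66.7% to 68.7% of all protein-coding genes in ATAC-seq, 52.5% to 58.4% in H3K27ac and 21.7% to 25.3% in H3K27me3. The OPC markers had H3K27me3 peaks at 2 and 3 of the 6 genes in WT and at 4 and 4 in Tcf4 cKO, a difference that was not tested. Of 6 interneuron markers, 1 or 2 had H3K27ac, and all 6 had H3K27me3 in every library. Of 6 astrocyte markers, 3 had H3K27ac in every library, and of 6 microglial markers none did. The microglial markers had ATAC-seq peaks at 5 and 4 genes in WT and 3 and 2 in Tcf4 cKO. The part of these cell types in the locus values was not tested, and a peak at a promoter does not measure expression.

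The footprint table gives, for each motif, a mean score over its sites in open regions, which is higher where a motif is shielded from Tn5 within accessible DNA. It was made from 1 merged alignment per genotype, so there is no replicate error. The 3 motifs named for Olig1 or Olig2 had lower scores in Tcf4 cKO, as did 643 of all 1205 motifs. The Olig2 motif MA1997.1, with 24371 sites, scored 0.317 in WT and 0.294 in Tcf4 cKO, a difference of -0.0234 that ranked 62 from the most negative of all 1205. Its sites called bound were 3612 in WT and 3247 in Tcf4 cKO, or 14.8% and 13.3%.

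The other two motifs had smaller differences. OLIG2 MA0678.1 scored 0.183 in WT and 0.178 in Tcf4 cKO over 5698 sites, and OLIG1 MA0826.1 scored 0.184 and 0.175 over 5183 sites. The median difference over all motifs was -0.0005. Motif rows do not name the bound protein, since related bHLH factors share their motifs: among the rows fixed for comparison, BHLHE22 MA1635.1 scored 0.333 and 0.306, and Tcf12 MA0521.2 scored 0.283 and 0.257. The motif of Tcf4 itself, TCF4 MA0830.2, scored 0.295 and 0.287. OLIG3 MA0827.1 scored 0.188 and 0.182.

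**Figure D5:**
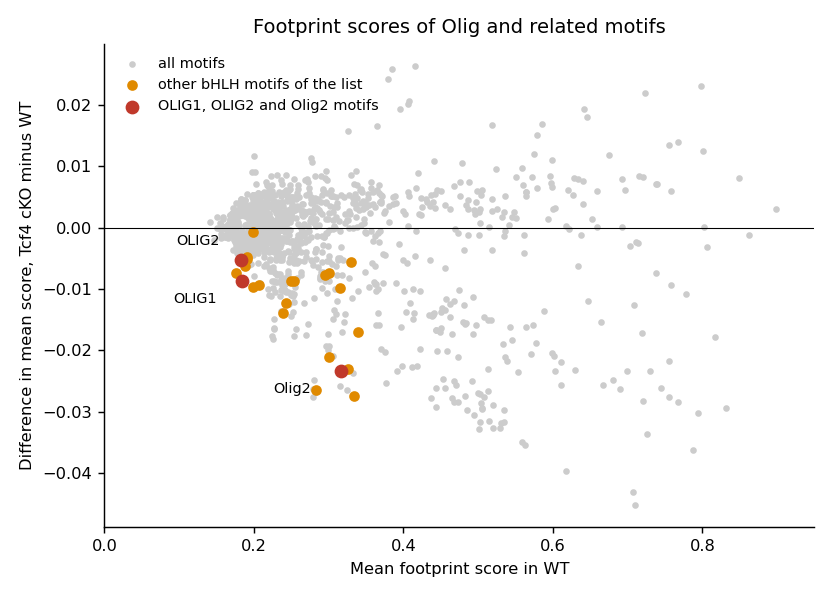
Difference in mean footprint score (Tcf4 cKO minus WT) against the mean score in WT for all 1205 motifs (grey), with the 3 Olig rows in red and the other bHLH rows of the list in orange. The Olig2 row lies at 0.317 and -0.0234, near several other bHLH rows.

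Among 20 other regulators of the lineage, 74 consensus regions were assigned to 19 genes and none to Sox10. The authors' mean was lower by more than 0.5 in Tcf4 cKO at 11 of the 74 and higher by more than 0.5 at 5, shares near those of all regions given above, and the median difference was -0.14. The fit called 3.19% of all tested regions. Of the 69 tested here it called 1 lower and 2 higher in Tcf4 cKO (limma, adjusted p under 0.05), a similar share. The lower one was at Id2, an inhibitor of E proteins (chr12:25213693-25214463), with fold enrichments of 6.58 and 7.71 in WT and 4.05 and 4.42 in Tcf4 cKO. A higher one was at Tcf3, another E protein gene (chr10:80446017-80446712), with 5.17 and 4.33 in WT and 7.09 and 6.88 in Tcf4 cKO. No region at all was called with no centring or without WT replicate 2. By the authors' mean the most negative difference of the list was at Zfp488, a zinc finger factor of oligodendrocytes (7.41 in WT and 5.94 in Tcf4 cKO), and the most positive at another region of Id2 (4.80 and 7.25). Tcf4 covered at least 30% of 19 of the 74 regions, where it covered as much of 36.3% of all consensus regions, so the share was no higher here.

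The promoters of Olig1 and Olig2 were also set against 11493 other genes with an accessible promoter, by the percentile of the strongest peak within 1 kb of a start site in each of the 18 libraries. The Olig2 promoter had ATAC-seq peaks at the 7.32, 9.10, 11.1 and 21.5 percentiles and no peak of any other assay. The 3 genes nearest to it were Phf21b, Mc1r and Igsf8, with mean absolute differences of 0.77, 0.87 and 1.11 percentile points. The Olig1 promoter had ATAC-seq peaks between the 26.7 and 46.1 percentiles and H3K27me3 peaks between the 36.2 and 56.6 percentiles. Its nearest genes were Cacnb3, Id2 and Sox21, at 3.96, 5.10 and 5.23 points. Olig1 and Olig2 differed from each other by 17.2 points, and Olig2 ranked 728 among the genes by nearness to Olig1. The median difference over all genes compared was 41.97 points from Olig1 and 43.13 from Olig2. A missing peak counted as percentile 0, so the small differences from Olig2 are mostly shared absences of peaks outside ATAC-seq. These values are descriptions and carry no test.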

How the data were processed

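ATAC-seq and Cut&Tag libraries had been trimmed with Trim Galore, aligned with Bowtie2 to mm10 and passed to MACS2 by the authors, in narrow mode except H3K27me3 (broad). The deposited peak lists give a fold enrichment (a ratio) and a -log10 p and -log10 q per peak. The authors' consensus table gives log2 mean normalised reads per genotype from DiffBind, and the authors' TOBIAS table gives motif site counts and mean footprint scores. Columns with the authors' own fold changes, p-values and FDRs were not used.

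Each library's strongest peak overlapping a region by at least 1 bp gave its value. log2 fold enrichments were centred on the library median and fitted with limma 3.58.1 (R 4.3.3, trend on the mean) over regions with a peak in all 4 libraries, with Benjamini-Hochberg adjustment over all of them. The fit was tested on simulated data with known changes. Marks were merged over their 4 libraries. Tcf4-tag sites needed overlapping peaks in both libraries. GENCODE M21 and RefSeq sequence of GRCm38 were used, since no peak on the 21 named chromosomes ran past a chromosome end; 54 peaks lay on other sequences. Motif shares were counted over reproducible Tcf4-tag summits and, for the promoters, over the bases before RefSeq starts. They were also counted over the centres of consensus regions. The region, lists and motifs were chosen with earlier results of these data known. Named genes were those starting in the window, the bHLH motif list, regulators with a called region or the largest difference, and the 3 nearest promoters. One regulator's results are not reported here. The single-cell samples were not analysed here. Alternatives are given at the end.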

Additional observations from a re-analysis of the deposited data

How the results depend on the processing

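No region of the locus passed the test in any assay under any of the 9 alternatives of each fit, where the lowest adjusted p at the locus was 0.128 for ATAC-seq, 0.724 for H3K4me1, 0.773 for H3K27ac and 0.278 for H3K27me3 (limma). With peaks of -log10 q of at least 5, though, no locus region of H3K4me1 or H3K27me3 and only 1 of H3K27ac was left to test. The numbers called over all regions did move, and the cause was not tested. ATAC-seq went from 970 to 0 with no centring, 636 with quantile normalization and 236 with peaks of -log10 q of at least 5. H3K4me1 went from 1 to 4 with no centring, H3K27ac from 0 to 2 with -log10 q of at least 5, and H3K27me3 from 324 to 123 with no centring, 208 with quantile normalization and 30 with -log10 q of at least 5. Without each library in turn the numbers ran from 0 to 779 for ATAC-seq (3 without WT replicate 1, 0 without WT replicate 2 and 621 without Tcf4 cKO replicate 1), were 0 for H3K4me1, ran from 1 to 8 for H3K27ac and ran from 72 to 548 for H3K27me3 (72, 180 and 548 without WT replicate 1, WT replicate 2 and Tcf4 cKO replicate 2). The remaining library of such a group was assumed to vary like the other group. With the replicate number as a block the numbers were 1093, 3, 9 and 689, but deviations of same-numbered libraries correlated by only -0.007 to 0.027, so the numbers were not taken as a pairing.

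Small log2 differences changed sign. With no centring they became -0.0357 and -0.0286 for ATAC-seq at +8.0 and +89.1 kb and -0.0221 for H3K4me1 at +8.2 kb. Without single libraries they ranged from -0.11 to 0.22, -0.27 to 0.032, -0.10 to 0.23 and -0.31 to 0.0722 for ATAC-seq at +8.0, +37.9, +89.1 and -33.4 kb. For H3K4me1 they ranged from -0.15 to 0.16 and -0.20 to 0.13 at +8.2 and +89.1 kb, and for H3K27ac from -0.11 to 0.0393 at +7.9 kb. For H3K27me3 they ranged from -0.17 to 0.0246, -0.11 to 0.10 and -0.0364 to 0.088 at -85.0, +44.6 and +117.8 kb. The difference at +21.2 kb for ATAC-seq stayed negative under each alternative. The H3K4me1 covered length, Tcf4 cKO over WT, went from 1.18 to 4.63 with -log10 q of at least 5 and to 0.876 as a share of each library. No H3K27me3 peak of the window reached -log10 q of 5, so that alternative gave no covered length. Tcf4-tag sites went from 9 to 5 with -log10 q of at least 5, and the Olig2 motif went from rank 62 to 10 by the share of bound sites. In windows of 300 bp, 8 of the 9 sites held an E-box, against 67.8% of all reproducible summits and 72.3% of consensus region centres. Of the 12 authors' means, all lower ones stayed lower after centring on the median of all regions.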
